A study of Mus musculus with 15 samples.

Results

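CpG-dense regions of intermediate methylation were followed through the loss of Dnmt1 in mouse kidney. The windows were autosomal blocks of 1000 bases with at least 20 cytosine positions seen in any of the 9 methylation samples and at least 5 positions with 10 or more calls in all 9. Of 10917 windows that met this coverage requirement, 117 had a methylation level between 35% and 65% in each of the 3 newborn controls and each of the 3 adults, and these 117, selected on those 6 levels, are described here. The level is the percent of methylated calls, summed over the positions covered in all 9 samples. The control and adult levels chose the windows, so they are given as a description with no test, while the knockout levels were not used in the choice.

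All samples came from kidneys of C57BL/6 mice. Controls (CTL) and knockouts (KO) were taken at postnatal day 0 (P0): both carried the floxed alleles, Dnmt1 f/f, and the KO also carried Six2Cre, a recombinase driven by a promoter active in the progenitors of the nephron. The adults were wild type, aged 6 weeks, and carried neither the floxed alleles nor the recombinase, so age and genotype cannot be told apart between adults and controls. Reduced representation bisulfite sequencing (RRBS), which reads cytosine methylation in CpG-rich restriction fragments, covered 3 samples of each group, and RNA sequencing covered 3 CTL and 3 KO samples. The labels name Six2-positive cells as the source but describe DNA extraction from entire kidneys, and markers of collecting duct, endothelium, stroma and leukocytes were above 1 CPM (read count scaled to library size) in all 6 RNA samples. Nothing in the labels says that the samples of a group were separate animals, so the tests measure the spread between these samples only.

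At an imprinted locus, a control region carries DNA methylation on the allele inherited from one parent and none on the other, so that bulk DNA reads at an intermediate level. Dnmt1, with its partner Uhrf1, copies methylation onto the new strand after each replication, and the zinc finger proteins Zfp57 and Zfp445 recruit Trim28 to keep imprints methylated in the early embryo. A window can also read at an intermediate level in bulk DNA when fully methylated and unmethylated positions lie side by side, or when cells differ. Alleles were not analysed here.

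The promoter sequences of 4 genes show both kinds of window. They run from 250 bases before to 50 bases after the start that RefSeq gives in GRCm38.p6, are printed 5′ to 3′ on the strand of the gene, and have in capitals the CpGs measured in all 9 samples.
Commd1, chromosome 11, 22972817 to 22973116, minus strand: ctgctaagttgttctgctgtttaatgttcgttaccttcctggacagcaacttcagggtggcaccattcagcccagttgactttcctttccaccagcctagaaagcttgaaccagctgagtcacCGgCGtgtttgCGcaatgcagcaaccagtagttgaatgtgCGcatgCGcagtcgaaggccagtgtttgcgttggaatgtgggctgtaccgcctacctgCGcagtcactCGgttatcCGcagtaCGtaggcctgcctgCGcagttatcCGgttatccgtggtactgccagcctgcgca
Zrsr1, chromosome 11, 22971755 to 22972054, plus strand: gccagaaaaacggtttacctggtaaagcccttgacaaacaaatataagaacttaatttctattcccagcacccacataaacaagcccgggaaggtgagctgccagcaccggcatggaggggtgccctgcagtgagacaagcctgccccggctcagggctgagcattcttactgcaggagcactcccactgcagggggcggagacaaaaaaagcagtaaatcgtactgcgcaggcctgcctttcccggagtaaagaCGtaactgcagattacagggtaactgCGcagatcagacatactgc
Gm29480, chromosome 1, 92848748 to 92849047, minus strand: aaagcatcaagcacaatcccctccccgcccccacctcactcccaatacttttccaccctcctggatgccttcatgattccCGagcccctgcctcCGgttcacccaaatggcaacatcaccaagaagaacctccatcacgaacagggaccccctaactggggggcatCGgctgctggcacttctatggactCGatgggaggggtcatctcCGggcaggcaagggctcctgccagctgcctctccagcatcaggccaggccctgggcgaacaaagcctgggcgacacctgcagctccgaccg
Sgsm3, chromosome 15, 80977515 to 80977814, plus strand: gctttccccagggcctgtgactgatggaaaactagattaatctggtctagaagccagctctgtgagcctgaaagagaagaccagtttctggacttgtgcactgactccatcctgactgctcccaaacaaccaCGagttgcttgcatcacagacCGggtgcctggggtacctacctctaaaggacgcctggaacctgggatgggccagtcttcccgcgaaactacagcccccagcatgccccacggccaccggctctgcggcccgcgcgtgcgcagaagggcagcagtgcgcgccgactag
Commd1 and Zrsr1 share an imprinted window, and Gm29480 and Sgsm3 lie at 2 windows away from imprinted loci. In controls the 12 measured positions of the Commd1 sequence lay between 45.5% and 71.7%, and the 2 of the Zrsr1 sequence at 49.9% and 53.7%. The 5 of the Gm29480 sequence spread from 2.0% to 65.7%, while the 2 of the Sgsm3 sequence were at 1.3% and 3.3% in a window whose other positions reached 100%. In KO the positions of the Commd1 sequence lay between 35.4% and 49.2%. The hexamer TGCCGC, bound by Zfp57 when methylated, was searched on both strands. It was in none of these 4 sequences and in 11.6% of the 32851 RefSeq promoters of the same length. At that share its absence from so few sequences is near the background. The promoters of Krtdap and E330017L17Rik, also measured in windows of the set but not printed, lacked it too.

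Known imprinted loci held 6 of the 117 windows, so the other 111 are described here by their methylation level alone. A list of 77 imprinted genes at 23 loci was compared with the windows, and 6 windows lay within 20 kb of a listed gene: at Gnas, Nap1l5, Cdkn1c of the Kcnq1ot1 cluster, Zrsr1, Peg13 and Slc38a4. These were 13.6% of the 44 covered windows at the listed loci, while 1.07% of all covered windows were in the set. They made up 5.13% of the set, and such loci held 0.403% of all covered windows. The count was also 6 within 5 kb and within 50 kb. With bounds of 30% to 70% it was 10, and with bounds of 40% to 60% it was 1. Covered windows existed at 20 of the 23 loci. None met the coverage requirement at Sfmbt2, Cdh15 or Dlk1-Meg3.

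Position by position, the 6 imprinted windows were even and most of the others were not. A window was called even when at least 80% of its positions lay at 30% to 70% in the pooled controls. This held for 35 of the 117 windows, including all 6 at imprinted loci and 29 of the 111 elsewhere. The measured positions spanned a median of 146 bases in the imprinted windows and 389 bases in the others. In even windows the median span was 222 bases, and in uneven windows 461 bases. The part of span in evenness was not tested. In 36 windows there were positions both under 20% and over 80%, and in 9 windows no position lay at 30% to 70%. The window of Psme3, a proteasome activator subunit, spanned 0.0% to 98.3% across its 6 positions. On the same pooled measure the window of Gnas spanned 47.6% to 55.7% across 5 positions, and that of Slc38a4 41.4% to 51.7% across 7.

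**Figure D1:**
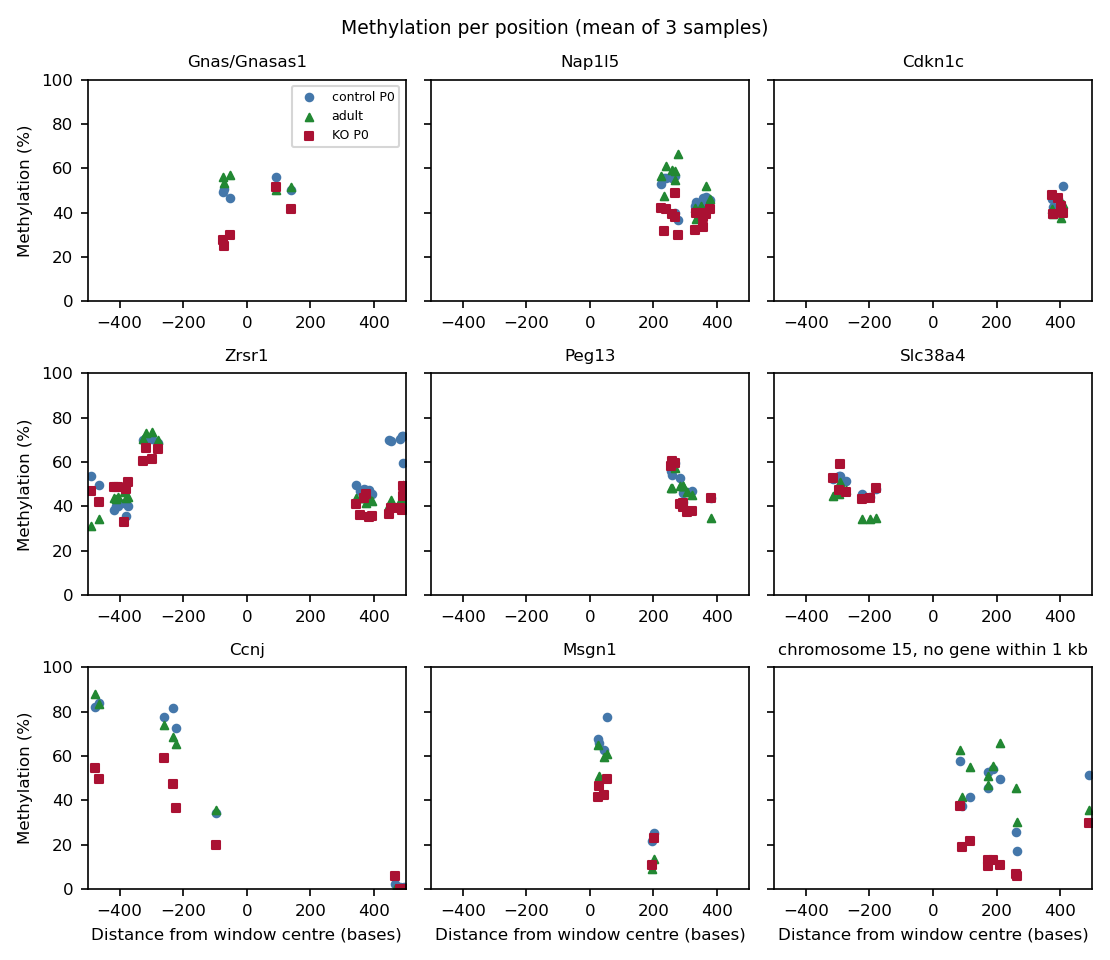
Methylation of each position measured in all 9 samples (percent, mean of the 3 samples of a group) against its distance from the window centre in bases. The first 6 panels are the imprinted windows, where control positions stayed between 35.9% and 71.7%, and the last 3 are windows with large decreases, of which the one at Ccnj ran from 1.1% to 83.8% in controls.

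The windows lay on all 19 autosomes, with 13 on chromosome 4, 11 on chromosome 7 and 11 on chromosome 15, and no 2 were adjacent. As a share of covered windows these were 1.71%, 1.43% and 2.26%, against 1.07% over all autosomes. Chromosomes 18 and 19 stood at 2.08% and 2.01%. Relative to RefSeq annotation, 18 of the 110 windows that could be classed overlapped a promoter (16.4%), 71 lay in a gene body (64.5%) and 21 lay outside genes (19.1%). Among all covered windows the promoter share was 45.5%, and among the 777 windows at 80% or more in every control and adult it was 3.4%. None of the 17 covered windows within 5 kb of a listed germline gene and none of the 67 within 5 kb of a Hox gene was in the set, and at 1.07% of covered windows a count of 0 among so few is near the background. Of 13 covered windows near clustered protocadherins, which encode neuronal adhesion proteins, 2 were. The windows nearest to the bounds were those of Pdgfrb, with a lowest sample of 35.02%, and Msgn1, with a highest of 64.95%. Just outside were Cnpy3 at 34.78% and Nod1 at 65.03%.

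The depth behind a window differed between samples. KO3 had a median of 157 calls per window and CTL2 had 714, and single values rested on 50 to 2973 calls. At 50 calls and 50% methylation the counting error alone is 7.07 points. Windows held a median of 7 shared positions. Because a position needed 10 calls in every sample, the number of windows moved with coverage: it was 233 at 5 calls, 22 at 20 calls and 193 without KO3.

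Methylation of the set was lower in KO, as an average over bulk DNA of mixed kidney cells. The part of cell composition in this difference, and in the shares kept given below, was not tested. The median window level was 49.6% in controls, 38.3% in KO and 49.5% in adults, and the median difference between KO and controls was -11.35 points, with quartiles of -15.21 and -6.08. The KO mean lay below the control mean in 108 windows and above it in 9. By library, the median level was 38.1% in KO1, 35.1% in KO2 and 41.2% in KO3, against 50% to 50.4% in the controls. All 3 KO levels were still between 35% and 65% in 34 windows and all were under 35% in 16.

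Each covered window was tested with a moderated quasi-binomial model, and a window was called when its p, adjusted over all 10917, was under 0.05 and the difference was at least 10 points. In the set 37 of 117 windows were called lower (31.6%) and none higher. At an unadjusted p under 0.05 there were 70, all lower. Of all covered windows 11.5% were called lower and 0.0458% higher. Of the 1722 covered windows with a control mean of 35% or more, 69.6% were called lower. Those 1722 had a median control level of 84.3%, and the part of the level in the share called was not tested. Every KO lay below every control in 57 windows of the set (48.7%), against 18.6% of all covered windows and 77.5% of those with a control mean of 35% or more. On simulated calls this test found 4.0% of windows lowered by 15 points and 45.0% of those lowered by 30 points. The simulated spread between samples was set, not fitted to these samples, and only a small part of the windows was lowered. These shares therefore do not measure how many real losses the test finds here. A window that was not called is still not shown to have kept its methylation.

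The count changed with the model and with CTL2. It was 20 without CTL2, 3 with an unmoderated dispersion and 0 by limma on log2 ratios, where 19 of the windows had an unadjusted p under 0.05. The median difference stayed between -12.47 and -9.36 points under every alternative run.

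**Figure D2:**
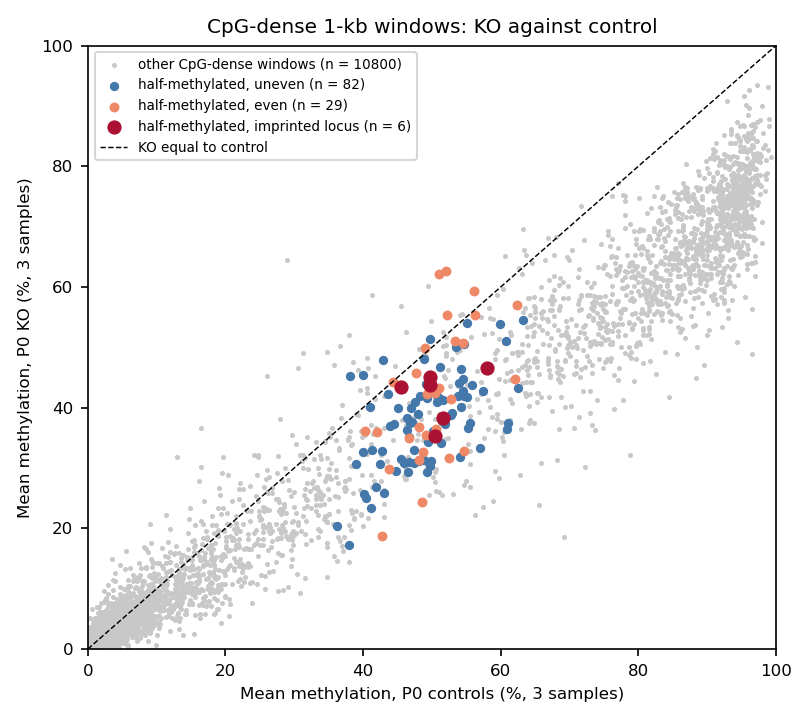
Mean methylation in KO (percent, 3 samples) against mean methylation in controls (percent, 3 samples) for the 10917 CpG-dense windows, one point per window. The 117 intermediate windows are coloured by evenness and imprinted locus, and 108 of them lie below the dashed line of equal levels.

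Expressed as a share of the control level, the loss was close to that of highly methylated windows. The median window kept 78.4% of its control level in KO, and the median of the 777 windows at 80% or more was also 78.4%. By library the intermediate windows kept 77.2%, 71.2% and 83.0% in KO1, KO2 and KO3, and the highly methylated windows kept 79.6%, 74.1% and 81.6%, so the order of the 2 classes was not the same in every library. The 35 even windows kept a median of 84.8% and the 82 uneven windows 76.7%. This order was seen in all 3 KO libraries, at 82.6% against 76.5% in KO1, 73.8% against 68.9% in KO2 and 84.3% against 81.5% in KO3. All 3 were divided by the same control mean, and the controls also set the classes, so the libraries are not independent here. The difference between classes was not tested, and neither was the part of the shorter span of even windows in it. The 6 imprinted windows kept a median of 84.2%, and the 29 even windows elsewhere kept 84.8%.

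**Figure D3:**
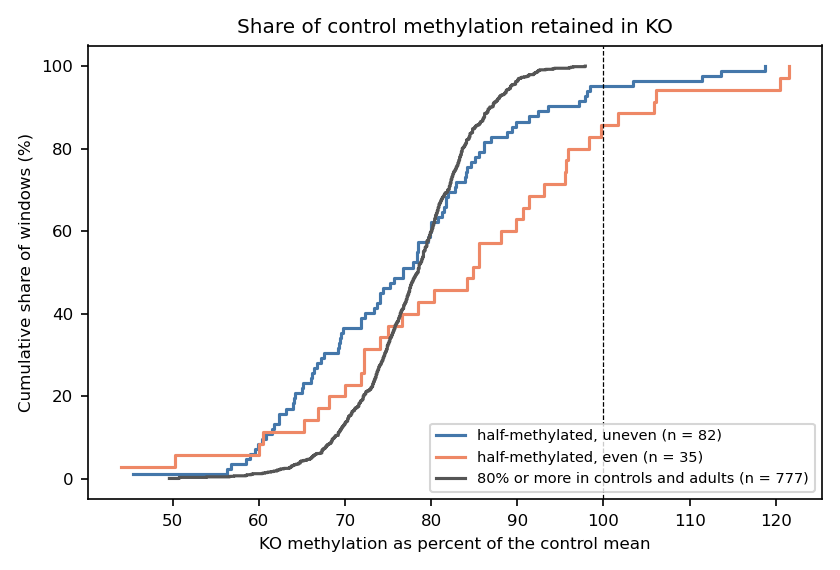
Cumulative share of windows (percent) against KO methylation as a percent of the control mean, for uneven and even intermediate windows and for windows at 80% or more in every control and adult. The curve of the even windows lies to the right over most of its length, with a median of 84.8% against 76.7% for the uneven and 78.4% for the highly methylated windows.

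Of the 6 imprinted windows, the 1 at Gnas was called lower. Gnas encodes the stimulatory G protein alpha subunit, and its locus holds several imprinted transcripts, among them the antisense Gnasas1. The window (chromosome 2, 174285001 to 174286000, in the bodies of both genes) had 50.4%, 53.5% and 47.2% in CTL1 to CTL3 and 36.0%, 36.5% and 33.3% in KO1 to KO3. The adults had 47.3%, 60.8% and 52.3%. No KO value overlapped a control or an adult, and all 5 positions were lower in KO. The controls averaged 50.4% ± 3.19 (SD, n = 3) and the KO 35.3% ± 1.71 (SD, n = 3). The difference was -15.1 points (SE 2.09, adjusted p 0.0122). The call was lost without CTL2 (adjusted p 0.07287) and without KO1 (0.05507), and with a minimum of 5 calls the difference was -6.60 points.

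The window shared by Zrsr1 and Commd1 had the most positions, 24 over 984 bases. Zrsr1 encodes a splicing factor and is a retrogene inside an intron of Commd1, a regulator of copper handling. The window (chromosome 11, 22972001 to 22973000, overlapping a promoter) had 62.1%, 54.0% and 57.9% in controls, 43.5%, 42.4% and 53.8% in KO and 44.0%, 53.0% and 43.1% in adults. All KO samples lay below all controls, KO3 narrowly, while KO and adults overlapped. The difference was -11.4 points (SE 4.34, adjusted p 0.0523), which missed the threshold. Without KO3, the highest KO sample, it was -15.1 points (adjusted p 0.0238), and the other omissions are not given here.

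The window at Nap1l5 (chromosome 6, 58906001 to 58907000) lies in the gene body. Nap1l5 encodes a nucleosome assembly protein and is a retrogene inside Herc3. Its levels were 60.7%, 53.9% and 40.2% in controls, 32.1%, 35.1% and 47.5% in KO and 49.2%, 58.0% and 43.8% in adults. KO3 lay inside the control range and the other two below it. The difference was -13.4 points (SE 7.66, adjusted p 0.0909), which missed the threshold. Without CTL3, the lowest control, it was -19.1 points (adjusted p 0.0221), and the other omissions are not given here.

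At the remaining 3 imprinted windows the groups overlapped. The window of Cdkn1c, a cell cycle inhibitor (chromosome 7, 143459001 to 143460000, 5 positions over 35 bases in the gene body), had 40.7%, 59.8% and 35.9% in controls and 38.6%, 25.4% and 66.2% in KO. The KO values ran both lower and higher than any control, and the difference was -2.05 points (SE 14.07, adjusted p 0.8873). The adults stood at 39.4%, 36.2% and 46.0%. The window of Slc38a4, an amino acid transporter (chromosome 15, 97055001 to 97056000, overlapping a promoter), had 64.2%, 40.5% and 44.6% in controls and 54.3%, 60.4% and 20.5% in KO. KO3 was far below the other two there, and the difference was -4.68 points (SE 14.41, adjusted p 0.9023). The adults, at 40.1%, 41.7% and 37.5%, lay close together.

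The window at Peg13 (chromosome 15, 72809001 to 72810000), a noncoding RNA inside Trappc9, had 51.0%, 40.8% and 57.2% in controls, 47.2%, 44.8% and 39.2% in KO and 42.4%, 49.1% and 49.0% in adults. The KO values overlapped the controls, and the difference was -5.93 points (SE 5.33, adjusted p 0.8428).

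**Figure D4:**
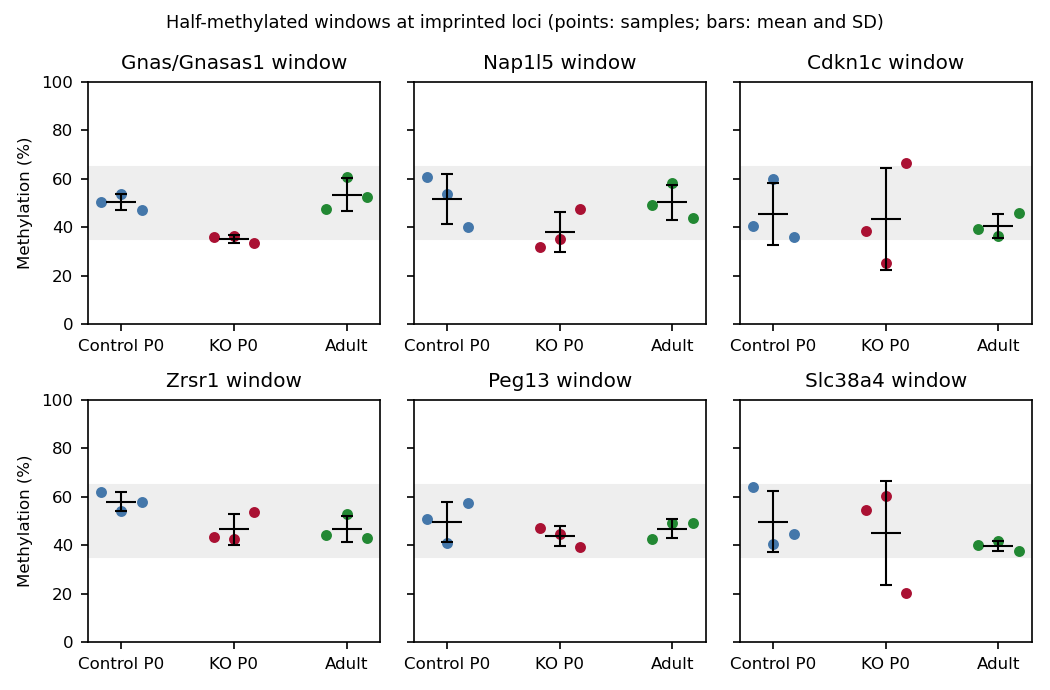
Methylation (percent) of the 6 imprinted windows in each sample, with the mean and SD of each group and the 35% to 65% band shaded. The KO points lie below every control at Gnas and at Zrsr1, and overlap the controls in the other 4 panels.

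Intermediate mean levels at imprinted loci were not limited to these 6 windows. In 12 other covered windows there, the control mean ran from 31.1% to 67.7%, but at least 1 control or adult lay outside 35% to 65%. Of these 12, 2 were called lower in KO, and the windows described next were picked after their values were seen. The neighbouring window of Cdkn1c (chromosome 7, 143460001 to 143461000) had 51.5%, 53.3% and 67.6% in controls and 20.6%, 35.3% and 48.8% in KO, a difference of -22.6 points (SE 9.60, adjusted p 0.04476). The promoter window of Mkrn3, a ubiquitin ligase of the Snrpn cluster (chromosome 7, 62420001 to 62421000), had 36.5%, 32.7% and 38.9% in controls and 15.3%, 19.6% and 26.3% in KO, a difference of -15.7 points (SE 3.67, adjusted p 0.0237). In both windows every KO lay below every control, and both calls were lost when any 1 library other than KO3 was left out, with adjusted p between 0.06246 and 0.184. The promoter window of Nnat, which encodes neuronatin, fell short of a call at 79.8%, 60.5% and 61.0% in controls against 39.1%, 39.5% and 57.5% in KO (difference -21.7 points, adjusted p 0.0866).

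Away from imprinted loci, the largest decreases left 44.0% to 61.5% of the control level. A window on chromosome 15 (80051001 to 80052000, outside genes) had 46.9%, 42.1% and 39.4% in controls, 18.6%, 16.3% and 21.5% in KO and 49.6%, 52.9% and 50.2% in adults. All 10 of its positions were lower in KO, and the difference was -24.0 points (SE 2.67, adjusted p 0.000639). Another on the same chromosome (96658001 to 96659000, outside genes) had 53.5%, 50.4% and 41.7% in controls and 24.0%, 22.9% and 26.3% in KO, a difference of -24.1 points (SE 3.68, adjusted p 0.001251). These windows were even, and both kept KO samples within a few points of each other.

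Decreases of similar size were also seen in uneven windows. A window on chromosome 5 (123382001 to 123383000, outside genes) had 57.3%, 62.0% and 63.2% in controls and 40.2%, 32.8% and 36.4% in KO, the largest decrease of the set at -24.4 points (SE 2.80, adjusted p 0.004013). The window of Ccnj, a cyclin gene (chromosome 19, 40830001 to 40831000), had 58.4%, 53.2% and 59.3% in controls and 38.1%, 33.5% and 28.3% in KO, a difference of -23.7 points (SE 3.41, adjusted p 0.002487). Its positions ranged from 1.1% to 83.8% in controls and from 0.0% to 59.3% in KO, and 8 of its 9 positions were lower in KO. The promoter window of Msgn1, a transcription factor of the early mesoderm (chromosome 12, 11208001 to 11209000), had 59.0%, 59.1% and 64.95% in controls and 28.6%, 23.6% and 60.4% in KO. KO3 stood near the controls there, and the difference of -23.5 points (SE 11.67, adjusted p 0.0780) became -34.9 points without KO3 (adjusted p 0.00195). The other omissions are not given here for this window.

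None of the 5 highest differences was called. The window of Bahcc1, a chromatin protein gene (chromosome 11, 120280001 to 120281000), had 85.4%, 47.1% and 53.7% in KO against 51.1%, 58.1% and 44.0% in controls, so KO1 alone lay above every control. Its difference of 10.99 points (SE 12.53, adjusted p 0.5286) was -0.70 points without KO1. The window of Wwox, an oxidoreductase gene at a fragile site (chromosome 8, 114852001 to 114853000), had 62.3%, 44.3% and 81.4% in KO against 53.2%, 56.1% and 46.8% in controls, with KO1 and KO3 above every control and a difference of 10.65 points (SE 11.06, adjusted p 0.7793). In 6 windows the SD among KO samples was over 15 points. The window of Rxfp3, a relaxin receptor (chromosome 15, 11035001 to 11036000), was the 1 window with every KO above every control, at 44.0%, 44.4% and 47.7% against 37.3%, 42.0% and 40.5% (difference 5.44 points, SE 1.82, adjusted p 0.3858). Of the windows with a control mean of 35% or more, 0.407% had every KO above every control.

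The differences at Elf5 and Pdlim3, the other two among the 5 highest, were 7.13 and 4.90 points. At both, KO2 and KO3 lay above every control.

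The 29 even windows away from imprinted loci had differences from -24.13 to 10.99 points. In 11 of them 100% of the positions lay at 30% to 70%, and 2 of the 11 were called lower. The called windows were those of Gm29865, a predicted gene (difference -21.9 points, adjusted p 0.006117), and Pou2f2, a transcription factor of B cells (-20.7 points, adjusted p 0.01332). The first call was lost without CTL2 (adjusted p 0.05738) and the second without KO1 (0.08778). Of the 11, the 5 with the smallest SD between positions were those of Bahcc1, Abat, Rgs6, Mxi1 and Map4, and none of these 5 was called. Abat, which degrades the transmitter GABA, had 52.6%, 43.1% and 55.6% in controls and 46.3%, 41.5% and 39.5% in KO. Mxi1, a MAX-binding repressor, had 49.5%, 53.0% and 54.1% in controls and 52.2%, 49.9% and 63.9% in KO. Map4, a microtubule protein, had 55.6%, 57.0% and 47.7% in controls and 42.2%, 46.7% and 64.4% in KO, and Rgs6, a regulator of G protein signalling, had 61.2%, 61.3% and 64.8% in controls and 51.5%, 52.5% and 66.8% in KO. In all 4 the KO and control values overlapped.

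Adult levels were held to the same bounds as the controls, and the median difference between them was -0.1 points, but single windows differed widely within the bounds. Every adult lay above every control in 25 windows and below in 17, and the shares among covered windows with a control mean of 35% or more were 12.9% and 18.4%. The largest rise was in the window of Ndrg1, a stress-response gene, with 38.7%, 36.9% and 41.4% in controls and 64.5%, 59.9% and 60.05% in adults. The largest drop was in the window of Tjap1, a tight junction protein, with 63.7%, 62.7% and 63.3% in controls and 37.9%, 42.9% and 43.5% in adults. These 2 windows were picked for their values and no test was made.

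RNA of the targeted gene was lower in KO. Dnmt1 had 5908, 4826 and 6921 reads in controls and 3526, 3378 and 2467 in KO (log2 fold change -0.74, SE 0.12, edgeR adjusted p 0.00577). Fewer cells of a type and less RNA per cell cannot be told apart in these bulk samples. The summed level of 5 tubule markers was 2011 to 4218 CPM in controls and 320.0 to 402.8 CPM in KO, and that of 3 podocyte markers 442 to 758 CPM against 124 to 153 CPM. Their part in the methylation differences above and in the RNA results below was not tested.

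Among genes that act on imprints, the shares called were near the background. Of 20 listed genes, 16 were tested, and by edgeR 1 was called higher (6.25%) and 1, Dnmt1, lower (6.25%). Over all 18132 genes tested, 6.36% were called higher and 8.23% lower. Zfp445 was the gene called higher, with 1158, 1315 and 1935 reads in controls and 2327, 2247 and 1581 in KO (log2 fold change 0.66, SE 0.16, edgeR adjusted p 0.03093). The call was lost without CTL1, CTL2, KO1, KO2 or KO3, with adjusted p from 0.05177 to 0.1272. Its KO3 count lay inside the control range before scaling to library size and above it after. Zfp57 had 1050, 1148 and 1872 reads in controls and 1546, 1579 and 1431 in KO, and did not pass (log2 fold change 0.36, edgeR adjusted p 0.2201).

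At the 6 imprinted loci with an intermediate window, RNA of 1 gene passed the test. Of 20 listed genes there, 19 were tested, and Kcnq1ot1 was called higher, which is 5.26% against 6.36% of all genes and so near the background. Kcnq1ot1 is a noncoding RNA read from the paternal allele antisense to Kcnq1, and strand was not stated for the counts, so reads of the 2 genes may mix. It had 14.6, 19.4 and 23.9 CPM in controls and 42.0, 31.9 and 28.3 CPM in KO, with no overlap. By edgeR this was a log2 fold change of 0.79 (SE 0.20, adjusted p 0.03485), which no longer passed without CTL1, CTL2, KO1, KO2 or KO3, where adjusted p ran from 0.05396 to 0.1465. Cdkn1c, which Kcnq1ot1 silences on the paternal allele, had 658, 669 and 418 CPM in controls and 503, 538 and 553 in KO (log2 fold change -0.19, edgeR adjusted p 0.6723).

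Another 3 of the 19 genes had every KO above every control in CPM without passing the test. Nap1l5 had 26, 20 and 12 reads in controls and 29, 36 and 32 in KO (log2 fold change 0.90, SE 0.39, edgeR adjusted p 0.177). Slc38a4 had 98.0, 96.7 and 68.3 CPM in controls and 121, 145 and 119 in KO (log2 fold change 0.49, SE 0.20, edgeR adjusted p 0.1408). The third was Nespas, an antisense RNA of the Gnas locus, with a log2 fold change of 0.50 (edgeR adjusted p 0.3666). Gnas itself, at the window called lower, had 451, 346 and 355 CPM in controls and 365, 377 and 380 in KO (log2 fold change -0.08, edgeR adjusted p 0.8038). Trappc9 and Slc22a18 had every KO below every control, with adjusted p of 0.09018 and 0.09725 by edgeR. The share of all tested genes without overlap is not given here, so the genes without overlap are a description only.

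**Figure D5:**
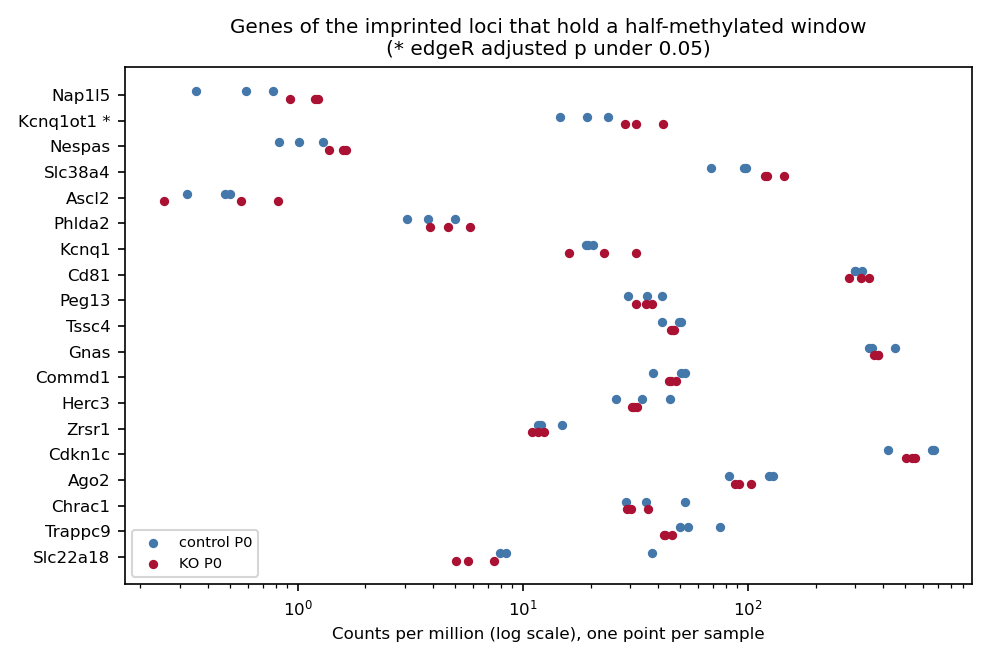
CPM (log scale) in each control and KO sample for the 19 tested genes of the 6 imprinted loci, ordered by log2 fold change. Kcnq1ot1, with 14.6 to 23.9 in controls and 28.3 to 42.0 in KO, is the gene past the edgeR threshold.

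Over the whole imprinted list, 67 of 77 genes were tested, with 9 called higher (13.4%) and 2 lower (2.99%) by edgeR, against 6.36% and 8.23% of all genes tested, and the median log2 fold change was 0.16 against 0.00 over all genes. The list was chosen with earlier results of these data known, so its direction is not independent evidence. Outside the loci above, the higher genes were Klf14, Peg3, Magel2, Plagl1, Meg3, Rian, Mirg and Impact, and the lower ones were Cobl and Slc22a2. Of these, Meg3, Rian and Mirg lie at a single locus, Dlk1-Meg3. Magel2, a ubiquitin ligase regulator of the Snrpn cluster, had 6, 12 and 12 reads in controls and 113, 229 and 109 in KO (log2 fold change 4.06, SE 0.44, edgeR adjusted p 0.000862). Its promoter window (chromosome 7, 62377001 to 62378000) had 38.3%, 41.1% and 40.4% methylation in controls and 38.0%, 30.4% and 37.1% in KO (difference -4.78 points, SE 2.54, adjusted p 0.2779). Mkrn3, whose window was called lower, had 173, 182 and 124 reads in controls and 240, 183 and 226 in KO (log2 fold change 0.60, SE 0.27, edgeR adjusted p 0.1886). Plagl1, a zinc finger transcription factor, rose by a log2 fold change of 1.01 (SE 0.17, edgeR adjusted p 0.006167). The solute carrier Slc22a2, a kidney tubule transporter, had 1467, 977 and 4483 reads in controls and 111, 112 and 139 in KO.

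Genes overlapping or within 1 kb of any of the 117 windows were then compared between KO and controls. The windows carried 121 gene names, of which 104 matched the count files and 86 were tested, with 3 called higher (3.49%) and 8 lower (9.30%) by edgeR, against 6.36% and 8.23% of all genes. The number called was 7 without CTL1, 24 without CTL3, 6 without KO1 and 6 without KO3. Calls over all genes moved too, from 1153 higher and 1493 lower of 18132 to 2512 and 2561 of 18533 without CTL3. They were 734 and 1012 without CTL1, 647 and 701 without KO1, and 734 and 790 without KO3. The higher genes were Clvs1, Pdlim3 and Pcdhga2, and the lower ones were Cyp24a1, Esrrb, Ndrg1, Fhod3, Abat, Rgs6, Aff1 and Wwox. None of their windows was called.

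Clvs1, a lipid-binding protein of the clathrin pathway, had 0, 0 and 1 reads in controls and 164, 89 and 145 in KO (edgeR adjusted p 0.000197). Its window in the gene body (chromosome 4) had 55.9%, 46.0% and 50.2% methylation in controls and 40.2%, 36.1% and 46.5% in KO. Esrrb, an orphan nuclear receptor, had 698, 707 and 575 reads in controls and 44, 86 and 27 in KO (log2 fold change -3.51, SE 0.38, edgeR adjusted p 0.000838). The methylation of its window (chromosome 12) was 44.4%, 42.9% and 41.1% in controls and 37.0%, 33.1% and 28.4% in KO, below every control but short of 10 points. Cyp24a1, the enzyme that inactivates vitamin D, had 556, 925 and 794 reads in controls and 76, 144 and 68 in KO (log2 fold change -2.82, SE 0.33, edgeR adjusted p 0.001223). So RNA was lower at Esrrb and Cyp24a1 and higher at Clvs1, while the mean methylation of all 3 windows was lower in KO. Pcdhga2 shares its last exons with other protocadherins of the cluster, and its count is uncertain for that reason.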

How the data were processed

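RRBS methylation was measured in 9 samples and RNA in 6. The deposited RRBS files give, per position, a methylation percent and, separately, how many calls were methylated and how many were not. Raw read counts per gene make up the deposited RNA files. Per the submitters' processing notes, Trim Galore, Bismark, STAR 2.4.1d and HTSeq 0.6.1 were used with builds mm10 and GRCm38. How each was run is not given in the sources used here, and neither is the strand setting of the counts.

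Calls were summed per window over the positions that had 10 or more calls in every sample. The 10917 covered windows were each fitted with a logistic model of quasi-binomial type (Python 3.11.15, numpy 2.4.6, scipy 1.17.1), with the dispersion moderated toward a prior as in limma and kept at 1 or above, and with Benjamini-Hochberg adjustment. For genes, edgeR 4.0.16 (R 4.3.3) gave the main quasi-likelihood test after TMM scaling and the edgeR filter on low counts, and DESeq2 1.42.0 was an alternative. The limma alternative was written in Python after limma's moderated test, on log2 ratios of calls with 0.5 added. A script tested both models on simulated data. The window model found 4.0% of windows lowered by 15 points and 45.0% of those lowered by 30 points, at a spread that was set and not fitted. The gene model found 83% of genes changed 4-fold and called 11 unchanged genes. Unassigned reads, 22.9% to 35.8% of each RNA sample, were left out. The RNA samples held 26773937 to 34102567 gene counts, and the RRBS samples 17860749 to 86465118 autosomal calls.

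Named windows were every window within 20 kb of a listed imprinted gene, and elsewhere the 5 largest decreases, the 5 highest differences and the 5 with the highest share of positions at 30% to 70%, ties being ordered by the smallest SD between positions. Named genes were Dnmt1, the imprinted genes of those loci, genes at named windows and genes of the lists that passed. Other windows and genes were picked for their values. The windows and lists were chosen with earlier results of these data known. No 2 samples of a group agreed within sampling noise. Alternatives were other coverage minimums, bounds, window grids, dispersion models, gene filters, a replicate block and each replicate left out. Windows on chromosome 18 were not classed by promoter.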

Additional observations from a re-analysis of the deposited data

How the results depend on the processing

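The set held 233 windows with at least 5 calls, 22 with at least 20 calls, 252 with bounds of 30% to 70%, 38 with bounds of 40% to 60%, 16 with at least 40 positions, and 103 to 193 with a library left out. Windows called lower numbered 78 with at least 5 calls, 7 with at least 20 calls, 72 with every position summed, 0 by limma on log2 ratios (19 at an unadjusted p under 0.05), 3 with unmoderated dispersion, 61 with no overdispersion, 21 at an adjusted p under 0.01, 8 at 20 points or more, and 20 to 37 with a library left out. Windows at imprinted loci were 10 with bounds of 30% to 70% and 1 with bounds of 40% to 60%, and even windows were 73 with positions at 20% to 80%. The median difference kept its sign in every alternative run. The cause of these shifts was not tested, beyond the number of positions or samples each setting leaves.

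The replicate numbers did not pair the samples. Deviations of same-numbered CTL and KO samples correlated at -0.034, 0.004 and -0.006 in RRBS and at -0.280, -0.121 and -0.147 in RNA. With the replicate block, 2 windows were called lower (59 at an unadjusted p under 0.05) and 0 imprinted genes at the 6 loci by edgeR. No sample could be shown to match its own number.

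Imprinted genes called at the 6 loci were 2 with no filter, 2 by DESeq2 and 0 to 4 with a library left out, 4 without CTL3. Genes called at any window were 20 by DESeq2 and 6 to 24 with a library left out, 24 without CTL3. Over all genes, DESeq2 called 1613 higher and 1911 lower of 18132. Without CTL3 edgeR called 2512 and 2561 of 18533, and with no filter 1404 and 1712 of 30538. None of the signs that changed belonged to a called value. The window of Slc38a4 gave 2.53 without CTL1 and 7.62 without KO3 (from -12.34 to 7.62 over single libraries left out). The first window of Cdkn1c gave 5.12 without CTL2, 0.37 without KO1 and 6.95 without KO2 (from -13.47). Map4 ran from -8.96 to 2.13, Bahcc1 from -0.70 to 18.47 and Mxi1 from -1.12 to 5.88, with the changed sign without KO1, KO1 and KO3. Among log2 fold changes, Cd81 gave 0.006 with at least 10 counts, 0.003 by DESeq2 and -0.103 to 0.073 with a library left out (0.032 and 0.031 without CTL1 and CTL2, 0.001 without KO2). Without CTL1 the sign changed for Gnas (-0.193 to 0.053 over libraries left out) and Peg13 (-0.140 to 0.067). Without CTL2 it changed for Chrac1 (-0.576 to 0.003), Commd1 (-0.274 to 0.061) and Tssc4 (-0.215 to 0.041), and without KO2 for Kcnq1 (-0.044 to 0.417) and Ascl2 (-0.115 to 0.638). Under alternatives, 195 values of named windows and 355 of named genes kept direction and side of the threshold, 32 and 63 no longer passed, and 8 and 6 passed newly.

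Depth limits the single windows. KO3, with a median of 157 calls per window, set which positions were shared, and a window with few positions over a short span rests on few molecules. Calls without molecular identifiers are not independent, so the counting error given is a lower limit.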

Other observations

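A window in the body of Dppa3, a maternal factor that protects methylation in the early embryo, was in the set and even, with 90% of its positions at 30% to 70%. It had 53.8%, 52.5% and 46.9% in controls, 48.0%, 38.5% and 43.5% in KO and 64.3%, 59.2% and 55.2% in adults (difference between KO and controls -7.75 points, adjusted p 0.1933). Dppa3 had 0 reads in all 6 RNA samples. Both the window and the gene were picked after their values were seen.

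Germline genes are often silenced by promoter methylation. Of the 17 covered windows within 5 kb of a listed germline gene, 10 were at 80% or more in every control and adult, against 7.12% of all covered windows. None was intermediate, which is near the background of 1.07%. By edgeR 19 of the 24 tested genes of that list were higher in KO and none was lower at an adjusted p under 0.05, against 6.36% and 8.23% of all genes tested. The list was known from earlier results of these data, so its direction is not independent evidence.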
